A study of Mus musculus with 6 samples.

Results

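The genes described are 38 cell cycle and DNA replication genes among the 57180 genes of an RNA sequencing table from cultured mouse hepatocytes. They were chosen by gene symbol, without a threshold on any measured value but with earlier results of these data known, and comprise cyclins, cyclin-dependent kinases and their inhibitors, replication factors, mitotic genes and members of the p53 axis. Primary hepatocytes, the parenchymal cells of the liver, were isolated from male mice on a C57BL/6 background, stated for the study as a whole to be 8 to 10 weeks old, by collagenase perfusion of the liver and cultured with dexamethasone and serum. Cells of both groups received the saturated fatty acid palmitate at 0.1 mM for 24 h, and no library without palmitate was analysed here. The LOXP group came from mice with a floxed Sting allele (n = 3 libraries). The group labelled KO (n = 3 libraries) came from mice with a liver-specific knockout of STING. They were bred from floxed and Albumin-Cre parents, so that Cre is driven by a promoter active in hepatocytes. The number of mice behind each library is not given in the sources used here. Since nothing says that the libraries came from separate mice or cultures, p-values measure only the spread between these libraries, which may be technical.

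Counted reads per library ran from 14726983 to 18536985. Counts were expressed as CPM, the count relative to the library's total, with scaling factors from 0.973 to 1.02 by the trimmed mean of M values method of edgeR, and 14151 genes passed its filter on low counts. Groups were compared with edgeR's two-sided quasi-likelihood test, and p-values were adjusted by the Benjamini-Hochberg method over all genes tested, which holds for every adjusted p below. A gene is called higher or lower at an adjusted p under 0.05, and differences are log2 fold changes of KO minus LOXP with their standard error (SE). The SE was derived from the test, as the size of the fold change divided by the square root of its F statistic. Intervals are 95% intervals built on this SE and are not adjusted for the number of genes. The gene targeted in the KO mice, *Sting1*, had 19, 16 and 23 counts in LOXP replicates 1, 2 and 3 and 24, 23 and 15 counts in KO replicates 1, 2 and 3. It was low in every library, and a loss in the libraries labelled KO was not seen in these counts (log2 fold change -0.08, interval -0.76 to 0.60, adjusted p = 0.883), so every direction given here is that of the libraries labelled KO. A read count alone does not separate transcripts with and without the deleted part of the gene, and the study's RT-PCR of sting is not analysed here. All 10 hepatocyte markers examined passed the filter, and albumin had a mean FPKM (the read count divided by gene length and by sequencing depth) of 7106.

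The cell cycle is driven by cyclins that bind and activate cyclin-dependent kinases in a set order. D-type cyclins with *Cdk4* and *Cdk6* act in G1 on the retinoblastoma protein *Rb1*, which holds back E2F transcription factors, and released E2F proteins switch on cyclin E and the genes of DNA replication. Most hepatocytes of an adult liver are quiescent and can re-enter the cycle, for example after partial hepatectomy, and p53 with its target *Cdkn1a* is among the brakes on that entry.

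In these cultures, G1 and S phase genes were expressed at moderate levels, genes of G2 and mitosis were at very low levels, and the inhibitors and p53 genes included the highest levels of all. In the libraries labelled KO, 12 members were higher, most of them replication genes, and 2 inhibitors of cyclin-dependent kinases, *Cdkn1a* and *Cdkn1b*, were lower. No gene of G2 or mitosis was called in either direction. Of the 38 members, 35 passed the filter and 3, the mitotic genes *Ccnb1*, *Plk1* and *Bub1*, did not. The 12 higher members were 34.3% of the 35 tested, beside 11.5% of all genes tested that were called higher. The 2 lower members were 5.71%, beside 11.6% of all genes tested that were called lower. The median log2 fold change was 0.38 over the tested members and -0.0021 over all genes tested, and 29 members had a positive and 6 a negative value. In bulk RNA, a change in the number of cells that express a gene and a change in RNA per cell cannot be told apart.

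The study's criteria for a changed gene (log2 fold change beyond 1 in size, adjusted p under 0.05, group mean FPKM over 1) were met by 1 member in each direction. *Mcm4* met them as higher, as did 0.558% of all genes tested, and *Cdkn1a* as lower, as did 1.49% of all genes tested. Every library labelled KO was above every LOXP library in 18 of the 35 tested members, and 20.4% of all genes tested were placed so. The reverse held in 3 members, *Cdkn1a*, *Cdkn1b* and *Mdm2*, and in 20.3% of all genes tested.

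Promoters of the S phase and mitotic members are shown because these groups of genes are known for different promoter elements, E2F sites in many replication genes and the cell cycle genes homology region (CHR) in many mitotic genes. RefSeq promoters of build GRCm38.p6 were matched for 31 of the 38 members, as 250 bases before to 50 after the start. The letters searched on both strands were TTTGGCGC, TTTCGCGC, TTTCCCGC and TTTGCCGC for E2F, TTTGAA for CHR and CCAAT for the CCAAT box, and matches on opposite strands may overlap. The 200 bases before the start are printed 5′ to 3′ on the gene's strand, with the E2F letters in capitals for 3 subunits of the replicative helicase, *Mcm5* at chr8:75109309-75109508 on the plus strand, *Mcm6* at chr1:128359706-128359905 on the minus strand and *Mcm7* at chr5:138171884-138172083 on the minus strand.
Mcm5: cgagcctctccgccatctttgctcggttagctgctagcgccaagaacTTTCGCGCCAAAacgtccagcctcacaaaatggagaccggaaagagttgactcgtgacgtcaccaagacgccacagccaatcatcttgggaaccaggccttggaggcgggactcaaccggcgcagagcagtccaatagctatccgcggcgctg
Mcm6: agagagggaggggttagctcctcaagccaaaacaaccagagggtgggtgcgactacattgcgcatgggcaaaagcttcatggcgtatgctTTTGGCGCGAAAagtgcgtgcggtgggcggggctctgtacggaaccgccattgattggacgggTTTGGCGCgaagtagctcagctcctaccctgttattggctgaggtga
Mcm7: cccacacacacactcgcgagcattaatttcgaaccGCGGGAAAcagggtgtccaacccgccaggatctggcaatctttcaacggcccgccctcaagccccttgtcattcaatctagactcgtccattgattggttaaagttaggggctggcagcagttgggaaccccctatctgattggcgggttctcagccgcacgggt

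Capitals mark the CHR letters in the promoters of *Mki67*, which encodes the proliferation marker Ki-67, at chr7:135716380-135716579 on the minus strand, and of *Cdk1*, the kinase that drives mitotic entry, at chr10:69352913-69353112 on the minus strand.
Mki67: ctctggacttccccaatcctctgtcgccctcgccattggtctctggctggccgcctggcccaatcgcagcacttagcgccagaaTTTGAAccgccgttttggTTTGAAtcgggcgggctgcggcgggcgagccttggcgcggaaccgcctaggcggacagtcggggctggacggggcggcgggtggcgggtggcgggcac
Cdk1: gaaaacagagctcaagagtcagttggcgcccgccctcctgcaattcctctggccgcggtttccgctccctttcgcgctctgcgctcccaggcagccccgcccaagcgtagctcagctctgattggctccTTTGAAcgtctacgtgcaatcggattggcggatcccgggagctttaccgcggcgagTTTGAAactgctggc

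In the full windows of 300 bases, E2F letters were found in 4 of the 9 S phase members with a promoter (44.4%), namely *Mcm3*, *Mcm5*, *Mcm6* and *Mcm7*, and in 2.6% of the 27025 genes with a promoter in RefSeq's table. Both matches of *Mcm3* lie after its start. *Mcm7* had a second match that lies after its start and is not printed, and the *Cdk1* promoter holds 1 match to the E2F letters, left in lower case above. CHR letters were found in 6 of the 9 mitotic members with a promoter (66.7%) and in 20.2% of all promoters, against 1 of the 9 S phase members, *Mcm2*. In the mitotic members *Aurka* and *Plk1* the only CHR match lies after the start. CCAAT was common in both groups, in 8 of 9 S phase members and 8 of 9 mitotic members (88.9% each), against 41.1% of all promoters. Among the 9 members called higher that had a promoter, 4 held E2F letters and 1 held CHR letters. The 4 were again *Mcm3*, *Mcm5*, *Mcm6* and *Mcm7*. Among the 9794 tested genes with a promoter the shares were 4.76% and 14.4%. *Mcm4*, *Ccne2* and *Ccnd2*, the called members with the largest rises, had no promoter in RefSeq's table and are not in this count. Such matches describe the letters and do not show binding.

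Levels between genes were compared as FPKM, with the gene lengths behind the deposited values. These lengths ran from 1531 bases for *Ccnb2* to 17124 bases for *Cdk6*, so the FPKM of a gene given a long length is lower than its main transcript alone would have. Of the 38 members, 24 had a mean FPKM above 1 over the 6 libraries and 10 had one above 10. The tested genes as a whole had a median of 3.93, and 76.8% of them were above 1. The median was 6.01 over the 5 G1 genes, 2.04 over the 5 G1/S genes, 8.18 over the 10 S phase genes, 0.185 over the 11 genes of G2 and mitosis and 21.7 over the 7 inhibitors and p53 genes. All 5 G1 genes and 9 of the 10 S phase genes were above 1, whereas none of the 11 genes of G2 and mitosis was, the highest of them being *Aurka* at 0.525.

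**Figure D1:**
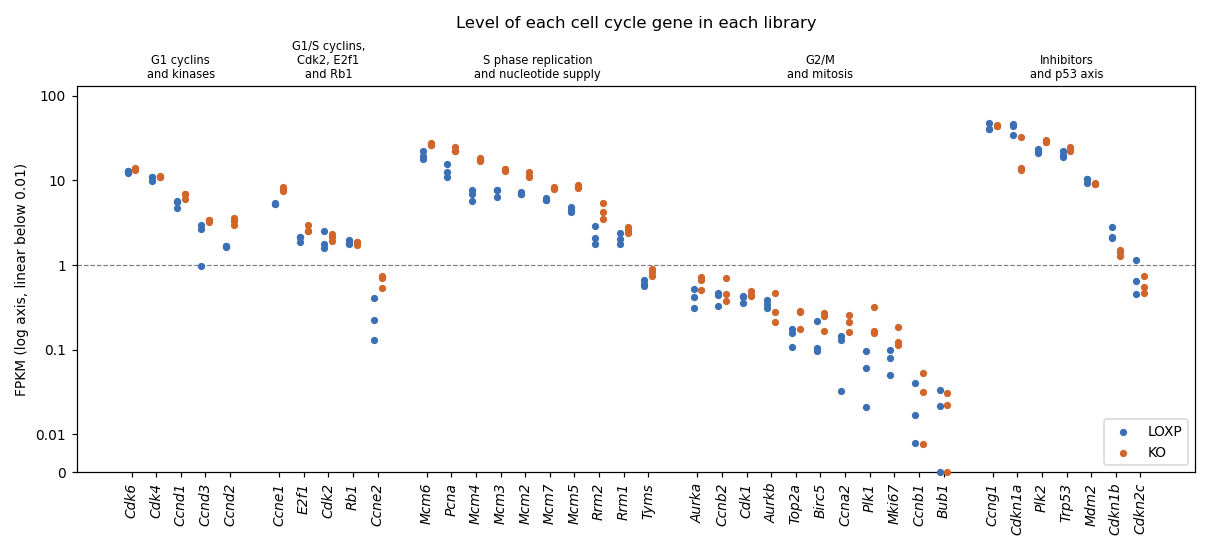
Level of each of the 38 genes in FPKM (log axis, linear below 0.01) in each of the 3 LOXP (blue) and 3 KO (orange) libraries, with genes grouped by phase and ordered by mean, and a dashed line at 1 FPKM. All 11 genes of G2 and mitosis lie below the line in every library, whereas *Mcm6* and *Pcna* lie above 10 in every library.

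*Ccng1*, a p53 target gene, had the highest mean level of the members (FPKM 43.8, at percentile 92.5 of the tested genes), followed by *Cdkn1a* (FPKM 30.6, percentile 89.3). The highest S phase level was that of *Mcm6* (FPKM 23.3, percentile 86.3). *Mki67*, at FPKM 0.109, stood at percentile 2.02 of the tested genes. The summed FPKM of the 11 genes of G2 and mitosis was 2.15 ± 0.249 (SD, n = 3) in the LOXP and 3.01 ± 0.116 (SD, n = 3) in the KO libraries, while that of the 10 S phase genes was 69.4 ± 7.29 and 117 ± 3.45. As a share of counted reads, the genes of G2 and mitosis took from 9.44 to 15.8 CPM (here without the scaling factors) in the 6 libraries and the S phase genes from 368 to 671. RNA of the G2 and mitosis genes was thus present at a small fraction of the level of the S phase genes in both groups.

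Of the G1 genes, 1 of 5 was higher (20%, beside 11.5% of all genes tested) and the others did not pass the test. *Ccnd2*, encoding cyclin D2 (ENSMUSG00000000184, chromosome 6 from 127102125 to 127129156), had 20.7, 21.4 and 20.3 CPM in LOXP replicates 1, 2 and 3 and 36.3, 44.9 and 40.0 CPM in KO replicates 1, 2 and 3. The KO libraries were all well above the LOXP libraries, which were close together, and the level rose 1.94-fold (log2 fold change 0.96, SE 0.0931, adjusted p = 0.000328). *Ccnd1*, encoding cyclin D1, the D-type cyclin known to rise in regenerating liver, had 32.4, 27.1 and 31.5 CPM in the LOXP and 38.8, 39.2 and 33.2 CPM in the KO libraries. The groups of *Ccnd1* did not overlap, but the lowest KO library was close to the highest LOXP library, and the difference missed the threshold (log2 fold change 0.29, interval 0.06 to 0.52, adjusted p = 0.0689).

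*Ccnd3*, encoding cyclin D3, had 48.0, 44.6 and 15.9 CPM in the LOXP libraries and 51.9, 56.1 and 54.3 CPM in the KO libraries. LOXP replicate 3 was far below the other 2 LOXP libraries, and the interval of the difference was wide (log2 fold change 0.58, interval -0.16 to 1.33, adjusted p = 0.241). Without LOXP replicate 3 the log2 fold change was 0.23 (adjusted p = 0.102). The kinases *Cdk4* and *Cdk6*, partners of the D-type cyclins, had overlapping groups. *Cdk4* had a mean of 68.5 ± 4.69 CPM in the LOXP and 70.0 ± 1.62 CPM in the KO libraries (SD, n = 3 each), with an interval of the log2 fold change from -0.13 to 0.19. *Cdk6* had 220.1 ± 6.86 and 231 ± 4.51 CPM (SD, n = 3 each), with an interval from -0.05 to 0.18.

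Of the G1/S genes, both E-type cyclins, which activate *Cdk2* at entry into S phase, were higher. They were 2 of 5 genes (40%, beside 11.5% of all genes tested). *Ccne1* (chromosome 7 from 37797409 to 37806959) had 19.9, 20.9 and 19.9 CPM in the LOXP and 31.4, 29.4 and 27.9 CPM in the KO libraries. The groups were narrow and apart, and *Ccne1* rose 1.46-fold (log2 fold change 0.55, SE 0.0807, adjusted p = 0.00221). *Ccne2* was a low gene with 50, 15 and 27 counts in the LOXP and 89, 101 and 70 counts in the KO libraries, or 3.16, 1.05 and 1.78 against 5.67, 5.45 and 4.08 CPM. It rose 2.51-fold (log2 fold change 1.33, SE 0.341, adjusted p = 0.0247), with LOXP replicate 1 the nearest to the KO libraries. The call of *Ccne2* was lost without LOXP replicate 3 (adjusted p = 0.0790), KO replicate 1 (0.0745) or KO replicate 2 (0.0798).

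*E2f1*, encoding an activating E2F factor, had 10.0, 9.09 and 10.1 CPM in the LOXP and 11.7, 11.7 and 13.6 CPM in the KO libraries. All KO libraries were above all LOXP libraries, and the adjusted p was 0.0685 (log2 fold change 0.34, interval 0.07 to 0.60). *Cdk2*, the kinase partner of cyclin E, had 21.0, 31.1 and 18.96 CPM in the LOXP and 27.2, 26.0 and 22.5 CPM in the KO libraries, with LOXP replicate 2 the highest of the 6 (log2 fold change 0.09, interval -0.31 to 0.49, adjusted p = 0.753). *Rb1* had 12.8 ± 0.700 CPM in the LOXP and 12.2 ± 0.549 CPM in the KO libraries (SD, n = 3 each), with overlapping groups and an interval from -0.30 to 0.16.

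The S phase genes were the group with the most calls. Of these 10 genes, 8 were higher (80%, beside 11.5% of all genes tested) and none was lower. All 10 had a positive fold change, and the median log2 fold change was 0.74. All 6 subunits of the MCM2-7 complex, the helicase that is loaded at origins and unwinds DNA, were among the 8. *Mcm4* (ENSMUSG00000022673, chromosome 16 from 15441761 to 15455264) had 31.0, 23.7 and 27.9 CPM in LOXP replicates 1, 2 and 3 and 72.5, 69.2 and 66.9 CPM in KO replicates 1, 2 and 3. All KO libraries were far above all LOXP libraries, and *Mcm4* rose 2.53-fold (log2 fold change 1.34, SE 0.1002, adjusted p = 8.8e-05).

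The other subunits rose by less than *Mcm4*. *Mcm5* had 24.3, 23.7 and 26.8 CPM in the LOXP and 47.8, 45.7 and 43.2 CPM in the KO libraries (log2 fold change 0.87, SE 0.0796, adjusted p = 0.000252). *Mcm3* had 51.1, 44.2 and 52.3 against 90.4, 87.6 and 88.7 CPM (log2 fold change 0.85, SE 0.0783, adjusted p = 0.000253). *Mcm2* had 61.2, 63.9 and 65.5 against 100.3, 112 and 96.4 CPM (log2 fold change 0.69, SE 0.0748, adjusted p = 0.000518). In these 3 subunits the gap between the groups was larger than the range within either group. *Mcm7* had 41.7, 40.8 and 40.0 against 54.2, 57.4 and 53.1 CPM (log2 fold change 0.43, SE 0.0659, adjusted p = 0.00270). *Mcm6*, the most abundant subunit, had 132, 107 and 114 against 160, 153 and 148 CPM (log2 fold change 0.38, SE 0.0817, adjusted p = 0.0118). The rises of the 6 subunits were therefore unequal in size, from 1.30-fold for *Mcm6* to 2.53-fold for *Mcm4*, and the intervals of *Mcm4* (1.11 to 1.57) and *Mcm6* (0.20 to 0.57) were apart. No test between subunits was run. Their mean FPKM ran from 4.50 for *Mcm5* to 20.0 for *Mcm6* in the LOXP libraries and from 8.18 for *Mcm7* to 26.7 for *Mcm6* in the KO libraries.

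*Pcna*, encoding the sliding clamp of the replicative polymerases (chromosome 2 from 132091082 to 132095234), had 54.5, 39.9 and 44.4 CPM in the LOXP and 76.2, 86.6 and 76.8 CPM in the KO libraries. LOXP replicate 1 was the nearest to the KO libraries but below all of them, and *Pcna* rose 1.73-fold (log2 fold change 0.79, SE 0.116, adjusted p = 0.00220). The genes of nucleotide supply gave 1 call in 3. *Rrm2*, the regulated small subunit of ribonucleotide reductase, had 10.9, 6.71 and 7.77 CPM in the LOXP and 20.0, 15.6 and 12.9 CPM in the KO libraries. It rose 1.90-fold (log2 fold change 0.93, SE 0.212, adjusted p = 0.0159) with a wide spread in both groups, and the call was lost without LOXP replicate 3 (adjusted p = 0.0558) or KO replicate 1 (0.0520).

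*Rrm1*, the large subunit of the same enzyme, had 30.5, 22.9 and 26.1 CPM in the LOXP and 32.4, 35.9 and 29.4 CPM in the KO libraries. The groups of *Rrm1* overlapped, since KO replicate 3 was below LOXP replicate 1, and the adjusted p was 0.113 (log2 fold change 0.30, interval 0.02 to 0.57). It passed the threshold only without LOXP replicate 1 (adjusted p = 0.0418). *Tyms*, encoding thymidylate synthase, had 6.94, 6.15 and 6.32 against 9.31, 8.63 and 7.52 CPM, which did not overlap (log2 fold change 0.39, interval 0.08 to 0.70, adjusted p = 0.0757).

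The libraries of a group did not contribute equally to these differences. LOXP replicate 2 was the lowest library in 8 of the 10 S phase genes, and KO replicate 1 was the highest in 6 and KO replicate 2 in 4. The 8 calls among S phase genes were kept without LOXP replicate 2, and 7 or 8 of them were kept when any other library was left out.

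**Figure D2:**
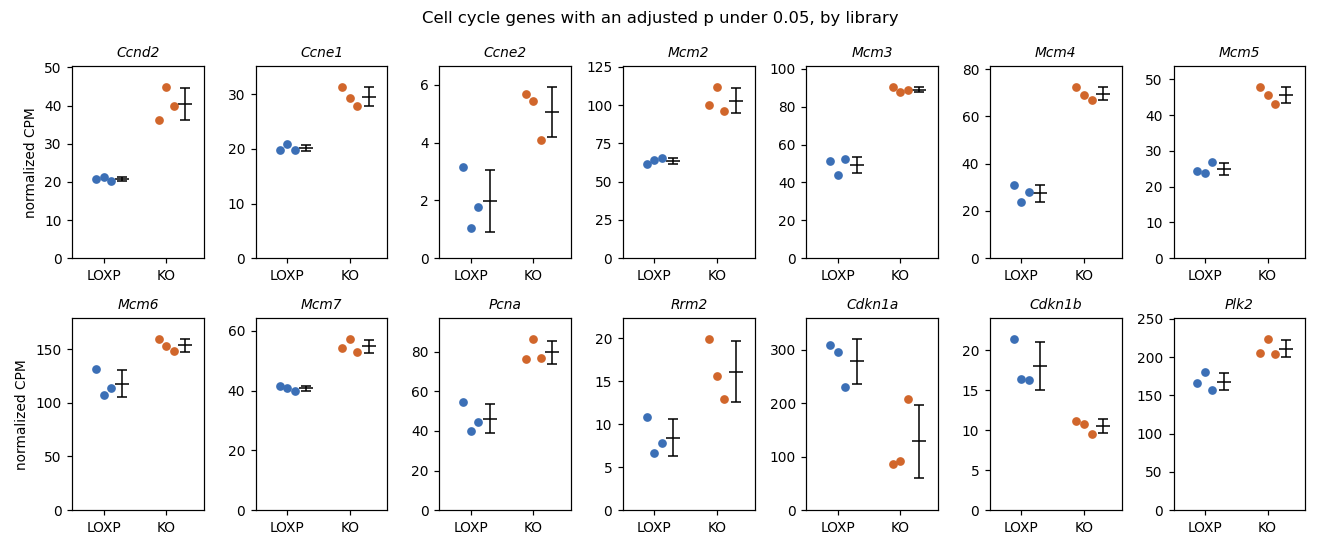
Normalized CPM of the 14 members with an adjusted p under 0.05 in each library (points, linear axes from 0), with the mean and SD (bars) of the 3 LOXP and 3 KO libraries. Groups do not overlap in any panel, and in the *Cdkn1a* panel KO replicate 3, at 208 CPM, lies near LOXP replicate 3, at 229.9 CPM.

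Of the 11 genes of G2 and mitosis, none was called, beside 11.5% of all genes tested called higher and 11.6% called lower. Their summed FPKM was 2.21, 1.87 and 2.36 in LOXP replicates 1, 2 and 3 and 2.88, 3.05 and 3.10 in KO replicates 1, 2 and 3, so every KO library was above every LOXP library, and no test was made of the sum. Of the 8 that passed the filter, 7 had a positive fold change, with a median log2 fold change of 0.60 that lay near the 0.74 of the S phase genes, but the intervals were wide at these counts. *Mki67* had 13, 15 and 8 counts in the LOXP and 30, 24 and 20 counts in the KO libraries, which did not overlap (log2 fold change 0.86, interval 0.07 to 1.65, adjusted p = 0.113). *Ccna2*, encoding cyclin A2 of S and G2 phase, had 13, 3 and 14 against 25, 25 and 17 counts (log2 fold change 0.98, interval -0.05 to 2.01, adjusted p = 0.157). *Top2a*, encoding topoisomerase II alpha, which untangles sister chromatids, had 27, 17 and 29 against 48, 55 and 32 counts (log2 fold change 0.71, interval 0.06 to 1.36, adjusted p = 0.110). In these 3 genes the KO libraries had more counts in sum, and both no change and a 2-fold rise lie within or close to the intervals.

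The 2 Aurora kinases of the mitotic spindle and midzone differed in the sign of their fold change, and neither passed the test. *Aurka* had 32, 18 and 25 counts in the LOXP and 40, 52 and 33 counts in the KO libraries (log2 fold change 0.56, interval -0.04 to 1.16). *Aurkb* had 32, 33 and 28 against 19, 30 and 46 counts, so the KO libraries spanned the LOXP libraries (log2 fold change -0.16, interval -0.87 to 0.56). *Cdk1* had 43, 34 and 43 against 44, 53 and 54 counts (log2 fold change 0.15, interval -0.27 to 0.57). Its level in CPM overlapped between the groups.

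*Ccnb2*, encoding cyclin B2, had at most 18 counts in a library and *Birc5*, encoding survivin, at most 19, and both had overlapping groups. The 3 genes under the filter were lower still. *Ccnb1*, encoding cyclin B1, had 8 counts in all LOXP and 13 in all KO libraries, and *Bub1*, a kinase of the spindle checkpoint, had 5 in each group. *Plk1*, the polo-like kinase of mitosis, had 5, 1 and 3 counts in the LOXP and 8, 19 and 9 counts in the KO libraries, a ratio of 3.53 of the pooled counts per normalized read (95% interval 1.67 to 8.33). That interval covers counting error only and not the spread between libraries. When genes with at least 1 count were kept, these 3 genes entered the test and none was called, with log2 fold changes of 1.78 for *Plk1* (SE 0.569, adjusted p = 0.0959), 0.49 for *Ccnb1* (SE 0.831, adjusted p = 0.765) and -0.14 for *Bub1* (SE 1.15, adjusted p = 0.963).

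**Figure D3:**
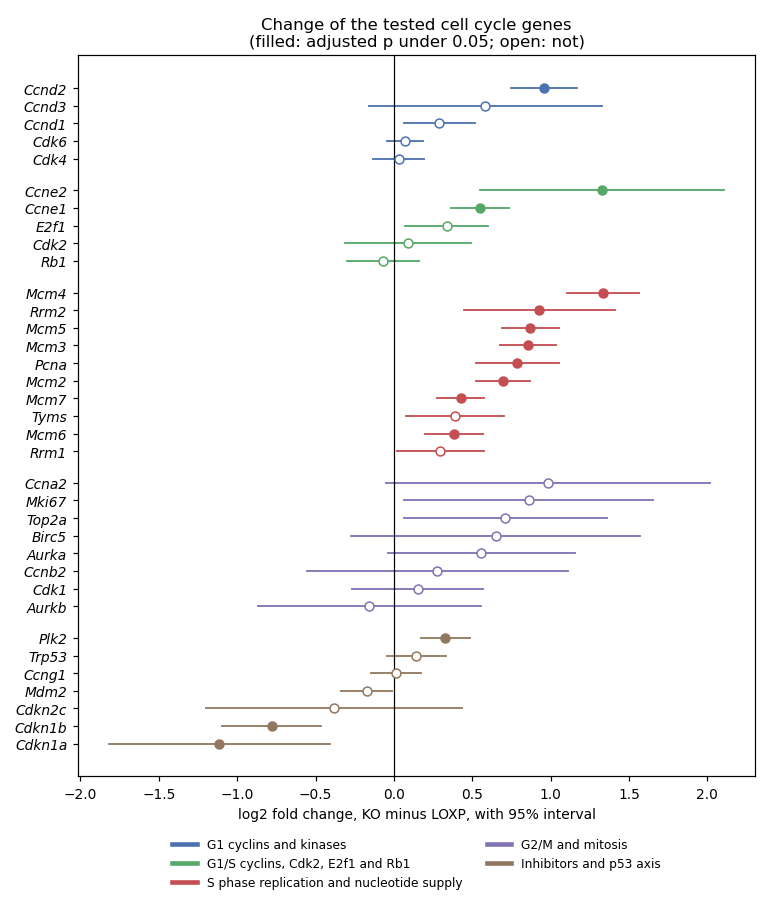
Log2 fold change of KO minus LOXP with its 95% interval for each of the 35 tested genes, grouped by phase and ordered within each group, with filled points for an adjusted p under 0.05. All 10 S phase genes lie to the right of 0, with 8 filled, whereas all 8 points of G2 and mitosis are open with wide intervals.

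Among the 7 inhibitors and p53 genes, 2 were lower (28.6%, beside 11.6% of all genes tested), 1 was higher (14.3%, near the 11.5% of all genes tested) and 4 did not pass the test. *Cdkn1a* (ENSMUSG00000023067, chromosome 17 from 29309950 to 29319701), which encodes the inhibitor p21 and is a main transcriptional target of p53, had 309, 295 and 229.9 CPM in LOXP replicates 1, 2 and 3 and 86.1, 91.9 and 208 CPM in KO replicates 1, 2 and 3. KO replicates 1 and 2 were far below every LOXP library, whereas KO replicate 3 was just below LOXP replicate 3. *Cdkn1a* fell by 1.11 on the log2 scale (SE 0.309, adjusted p = 0.0335), and without KO replicate 3 the value was -1.64 (adjusted p = 0.000737). The call was lost without any one of the other 5 libraries (adjusted p from 0.0506 to 0.107) and also with DESeq2 (0.0680) or with genes of at least 1 count kept (0.0609). *Cdkn1b*, which encodes p27, an inhibitor of cyclin E-Cdk2, had 21.5, 16.4 and 16.3 CPM in the LOXP and 11.2, 10.8 and 9.51 CPM in the KO libraries. The KO libraries were close together and all below the LOXP libraries, and *Cdkn1b* fell by 0.78 on the log2 scale (SE 0.138, adjusted p = 0.00528), a call that each alternative kept.

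*Cdkn2c*, encoding the *Cdk4* and *Cdk6* inhibitor p18, had 51, 19 and 28 counts in the LOXP and 33, 29 and 22 counts in the KO libraries, with overlapping groups and LOXP replicate 1 the highest (log2 fold change -0.38, interval -1.20 to 0.44). *Trp53*, encoding p53, had 147 ± 15.6 CPM in the LOXP and 162 ± 7.78 CPM in the KO libraries (SD, n = 3 each), with overlapping groups and an interval from -0.05 to 0.33. *Ccng1* had 188 ± 16.8 and 190.2 ± 5.23 CPM (SD, n = 3 each), with an interval from -0.15 to 0.18. The p53 targets among the members thus gave different values, with *Cdkn1a* lower and *Ccng1* within 0.18 of no change on the log2 scale by its interval.

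*Mdm2*, a p53 target whose product marks p53 for degradation, had 103, 105 and 91.2 CPM in the LOXP and 87.9, 88.7 and 88.6 CPM in the KO libraries. The groups did not overlap and lay close together (log2 fold change -0.17, interval -0.33 to -0.01, adjusted p = 0.111), and the threshold was passed only without LOXP replicate 3 (adjusted p = 0.0474). *Plk2*, a polo-like kinase of G1 and also a p53 target, had 166, 180.5 and 157 CPM in the LOXP and 205, 224 and 204 CPM in the KO libraries. It rose 1.26-fold (log2 fold change 0.33, SE 0.0686, adjusted p = 0.0108), and the call was lost without KO replicate 2 (0.0512). In an exact two-sided permutation test of single genes, 3 libraries against 3 cannot give a p below 0.1, and members whose groups do not overlap had that value.

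Cell cycle genes beyond the 38 members were counted in 4 lists with 140 genes in all, of which 125 were tested. In them 38 genes were higher and 8 lower, or 30.4% and 6.4%, beside 11.5% and 11.6% of all genes tested. The median log2 fold change was 0.21. The list of other replication genes had the most calls, with 25 of 51 higher and 1 lower, 48 positive fold changes and a median of 0.44. *Pold1*, the catalytic subunit of DNA polymerase delta, had 20.0, 19.9 and 19.7 CPM in the LOXP and 39.0, 43.0 and 43.7 CPM in the KO libraries (log2 fold change 1.08, SE 0.0764, adjusted p = 7.7e-05). *Uhrf1*, which maintains DNA methylation behind the replication fork, had 8.77, 8.39 and 8.76 against 28.7, 22.9 and 20.4 CPM (log2 fold change 1.47, SE 0.139, adjusted p = 0.000292). *Wdhd1*, a replisome adaptor, had 10.2, 7.55 and 8.69 against 18.9, 17.4 and 17.4 CPM (log2 fold change 1.02, SE 0.126, adjusted p = 0.00096). These 3 genes all had groups far apart. The 1 lower gene, *Orc5* of the origin recognition complex, had a log2 fold change of -0.49 (adjusted p = 0.0120). Of the 2 most abundant genes of the list, the polymerase delta subunit *Pold4* was higher (log2 fold change 0.57, adjusted p = 0.00324) and the GINS subunit *Gins4* had overlapping groups (0.13, interval -0.08 to 0.33).

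Among 22 other G1/S regulators, 8 were higher (36.4%, beside 11.5% of all genes tested) and none was lower, with a median of 0.25. *E2f4*, the E2F factor of repressor complexes in quiescent cells, had 127, 141 and 141 CPM in the LOXP and 188, 208 and 188 CPM in the KO libraries (log2 fold change 0.51, SE 0.0684, adjusted p = 0.00137). *Tfdp1*, the dimerization partner of E2F proteins, had a log2 fold change of 0.48 (adjusted p = 0.00150), and *Cdc25a*, the phosphatase that activates *Cdk2*, one of 0.65 (adjusted p = 0.00268). *Myc* had 144, 136 and 122 against 144, 153 and 154 CPM and was not called (log2 fold change 0.17, adjusted p = 0.136). The E2F genes with the largest changes, chosen after their values were seen, were *E2f7* (log2 fold change 2.07, adjusted p = 0.00474) and *E2f8* (1.61, adjusted p = 0.0163), which encode atypical repressors and had mean FPKM values of only 0.0907 and 0.209.

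Among 40 other mitosis genes, 27 passed the filter, 3 were higher (11.1%, near the 11.5% of all genes tested) and none was lower, and the median was 0.19. Their mean FPKM had a median of 0.228, and 11 of the 40 were above 1. The 3 that rose, *Smc2*, *Smc4* and *Ncapd2*, encode condensin subunits, with log2 fold changes of 0.51, 0.47 and 0.41 and adjusted p from 0.0295 to 0.0494. Their calls were lost in 7, 5 and 11 of the 13 alternatives, so they stood near the threshold. A further condensin gene of the list, *Ncapg*, named after its values were seen, had overlapping groups (log2 fold change -0.15, adjusted p = 0.786). The 2 most abundant genes of the list, *Cks2* and *Bub3*, had overlapping groups, with intervals from -0.56 to 0.17 and from -0.03 to 0.40.

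Among 27 other inhibitors and p53 targets, 25 were tested, and the median was -0.25. Of the 25, 2 were higher (8%, beside 11.5% of all genes tested) and 7 lower (28%, beside 11.6%). *Trp53inp1*, a p53-induced nuclear protein gene, had 446, 470.0 and 380.0 CPM in the LOXP and 236, 213 and 218 CPM in the KO libraries and fell by 0.96 on the log2 scale (SE 0.0834, adjusted p = 0.000201). *Ccng2*, encoding cyclin G2, which is linked to exit from the cycle, fell by 0.81 (SE 0.135, adjusted p = 0.00388), and *Btg2*, an antiproliferative p53 target, fell by 0.45 (SE 0.0786, adjusted p = 0.00485). Groups did not overlap in any of these 3 genes. The 2 higher genes were *Cdkn2b*, encoding the *Cdk4* and *Cdk6* inhibitor p15 (log2 fold change 1.09, adjusted p = 0.0187), and *Plk3* (0.31, adjusted p = 0.0407), and their calls were lost in 3 and 5 of the 13 alternatives. The p53 targets *Perp* and *Bax*, the most abundant of the list, were not called, with intervals from -0.08 to 0.20 and from 0.02 to 0.54. Inhibitors of cyclin-dependent kinases therefore gave calls in both directions, with *Cdkn1a* and *Cdkn1b* lower and *Cdkn2b* higher. *Cdkn2b* had only 44, 21 and 24 counts in the LOXP and 60, 77 and 77 counts in the KO libraries. The call of *Cdkn1a* was lost in 7 of the 13 alternatives. *Cdkn2c* (-0.38) and *Cdkn2d* (-0.47, named after its values were seen) were not called.

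**Figure D4:**
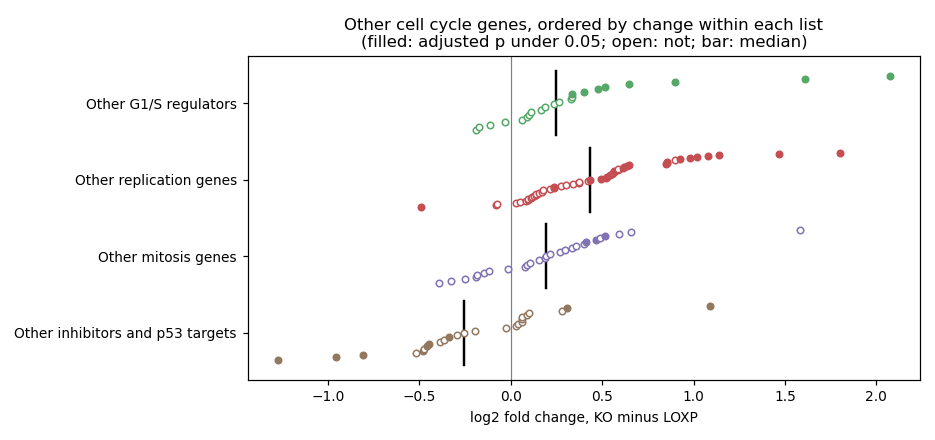
Log2 fold change of KO minus LOXP for the 125 tested genes of 4 further cell cycle lists, ordered within each list, with filled points for an adjusted p under 0.05 and a bar at the median. The replication list has 26 filled points of 51 and a median of 0.44, and the list of inhibitors and p53 targets has 9 of 25 and a median of -0.25.

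Markers of the cell types a liver preparation can hold were measured in the same libraries. Of 10 hepatocyte markers, 8 were lower in the KO libraries (80%, beside 11.6% of all genes tested) and none was higher. Their median log2 fold change was -0.52. Their summed FPKM was from 9327 to 9684 in the LOXP and from 8109 to 8256 in the KO libraries. Most of this sum was *Alb*, at a mean FPKM of 7106. On the log2 scale *Alb* was at -0.27 (adjusted p = 0.00319), *Apoa1* at -0.09 (0.232) and *Ttr* at -0.45 (0.000566). The hepatocyte markers that fell furthest, named after their values were seen, were *Pck1* (-3.30), *G6pc* (-3.03) and *Cps1* (-1.24). Mean FPKM was 1.68 for *Pck1*, 0.526 for *G6pc* and 59.9 for *Cps1*. Of 10 macrophage markers 2 were lower (20%, beside 11.6% of all genes tested), *Cd68* (-0.87) and *Mpeg1* (-0.69), while *Lyz2* was not called (0.18, adjusted p = 0.353). The list had 4 positive and 6 negative fold changes, with a median log2 fold change of -0.13. The summed FPKM was from 65.0 to 79.5 against 50.4 to 59.4. Without *Cd68*, a choice made after seeing the data, the sums overlapped, at 27.3 to 39.4 against 30.8 to 36.5. Of the markers named after their values were seen, *Cd5l* was at 1.10 to 3.88 FPKM in the LOXP and 4.68 to 5.70 FPKM in the KO libraries (log2 fold change 0.94, adjusted p = 0.0853), and *Clec4f* (0.12) and *Marco* (0.05) had overlapping groups. *Adgre1* (-0.12), *Csf1r* (-0.16), *C1qa* (-0.34) and *C1qb* (-0.15), also named after their values were seen, had overlapping groups too. Of 9 tested endothelial markers 1 was lower (11.1%, near the 11.6% of all genes tested), *Stab2* (-0.49, named after its values were seen). In this list 8 fold changes were negative and 1 positive, with a median of -0.20. *Pecam1* (-0.28) and *Tek* (-0.36), also named after their values were seen, were not called, but every KO library was below every LOXP library. Of 8 tested stellate cell markers none was called. Summed FPKM was from 32.5 to 34.5 against 29.7 to 32.8 for the endothelial markers and from 6.33 to 6.66 against 6.92 to 7.82 for the stellate cell markers. The most abundant of these, *Cdh5*, *Lyve1* and *Eng* for endothelial cells and *Dcn*, *Acta2* and *Pdgfrb* for stellate cells, were not called.

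Of the 4 tested cholangiocyte markers 3 were lower (75%, beside 11.6% of all genes tested), *Cldn4* (-1.03), *Sox9* (-0.87) and *Spp1* (-2.04). *Krt19*, named after its values were seen, was higher (0.82, adjusted p = 0.0479), or 25% of the 4, beside 11.5% of all genes tested. The summed FPKM of the list was from 119 to 140.2 against 61.8 to 72.7. Most of that sum was *Cldn4*, with a mean of 111 of 133 in the LOXP and 55.8 of 66.8 in the KO libraries. *Krt7* and *Epcam*, also named after their values were seen, did not pass the filter. They had 13 and 18 counts in all LOXP and 5 and 25 counts in all KO libraries. Of the 10 lymphocyte and neutrophil markers 8 had no count in any library (a count of 0 allows up to 3), and *S100a8* and *S100a9* had at most 4 counts in a library. The part of these shifts in the changes of cell cycle genes was not tested.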

How the data were processed

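RNA of primary hepatocytes from 3 LOXP and 3 KO samples, all treated with palmitate, was sequenced. Per the submitters' processing notes the tools were fastp, HISAT2, StringTie and edgeR, with build GRCm39, and the counting tool's settings, the annotation and the use of strand are not given in the sources used here, so reads of overlapping genes may be mixed. The authors deposited a raw read count and an FPKM value per gene and library (12 columns, all mapped to a sample). The FPKM values were used for levels and the counts for tests.

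Counts were analysed with edgeR 4.0.16 in R 4.3.3 (filterByExpr with a minimum count of 10, TMM, quasi-likelihood test, tested on simulated data). The alternatives were DESeq2 1.42.0, upper-quartile factors, 2 other filters (all genes with a count, or a minimum of 10 counts in each library), a block for the replicate number, limma 3.58.1 on log2(FPKM + 1) and log2(FPKM + 0.1), and each library left out in turn. Counting intervals are exact 95% intervals and cover counting error only. The members and lists were chosen with earlier results of these data known. Of 141 symbols listed for further cell cycle genes, 140 were found. Genes named are all members, *Sting1*, of each further list up to 3 called genes with the smallest adjusted p in each direction and the 2 with the highest mean FPKM, and for each cell type the 3 markers with the highest level. Genes outside this rule are marked. Promoters were not found for 7 members. Figures were drawn with matplotlib 3.10.9.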

Additional observations from a re-analysis of the deposited data

How the results depend on the processing

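Over the 13 alternatives, 429 of 451 fold changes of members kept their direction and their side of the threshold. The number of higher members was 10 to 13 and that of lower members 1 to 2. With DESeq2, and with the filter lowered to 1 count, 1 member was lower and 1 met the study's criteria, since *Cdkn1a* lost its call in both. When each library was left out in turn, the members called lower numbered 1 to 2, those meeting the criteria 1 to 3, and the other cell cycle genes called lower 5 to 7. Fewer libraries also gave fewer calls among all genes, with 6.38% to 10.5% higher.

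With the replicate block, 12 members were higher and 2 lower, the same genes as without it. In the sources used here, samples of the 2 groups share only a number. Deviations of samples with the same number correlated at 0.132, 0.0729 and 0.0256. Each KO library correlated best with the LOXP library of its own number, whereas LOXP replicate 3 correlated best with KO replicate 2 (0.0406). These correlations are small, and whether the samples were paired was not tested.

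The sign turned for 5 members that were called in no fit. When 1 library was left out, the log2 fold change was from -0.0277 to 0.0614 for *Cdk4*, from -0.0443 to 0.335 for *Cdk2*, from -0.526 to 0.0631 for *Aurkb*, from -0.623 to 0.0463 for *Cdkn2c* and from -0.0256 to 0.0886 for *Ccng1*. The cause was not tested. With few counts, the intervals of the G2 and mitosis genes were wide.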
